A study of Caenorhabditis elegans with 79 samples.

Results

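Small RNAs were measured for 73 genes of Caenorhabditis elegans that are called sperm-named here and have a row for 22G-RNAs, out of 6890 genes with such a row. Of the name families below, nspd- and gsp- do not refer to sperm in their names. The members were chosen by symbol alone: spe- (spermatogenesis defective), fer- (fertilization defective), msp- (major sperm protein), msd- (major sperm protein domain), ssp- and ssq- (sperm-specific families P and Q), nspd- (a nematode-specific peptide family) and gsp- (PP1 phosphatase catalytic subunits). They comprised 22 msp-, 19 spe-, 11 ssp-, 9 nspd-, 4 msd-, 4 gsp- and 3 ssq- genes and fer-1. The 73 genes filled 75 rows, since spe-39 and spe-41 were listed under 2 classes each with identical values and were counted once.

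In the C. elegans germline, 22G-RNAs are antisense secondary siRNAs made by RNA-dependent RNA polymerases on a target transcript and loaded into worm-specific Argonautes. During spermatogenesis many targets are first chosen by 26G-RNAs, which are cut by Dicer from double-stranded RNA and bound by the related Argonautes ALG-3 and ALG-4. The 22G-RNAs that follow are handed to Argonautes that silence (the WAGO class) or license (CSR-1) germline genes, and animals without ALG-3 and ALG-4 make defective sperm at elevated temperature. RDE-4 is a double-stranded RNA-binding protein that works with Dicer, and RDE-1 is the Argonaute of the exogenous RNAi pathway.

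Animals were grown at 20 °C, with 3 replicates per group in the first 5 groups below and 2 in the others. L4 larvae were sampled at 54 h without RNAi as rde-4(syb6665) and as wild-type N2. Gravid adults were sampled at 72 h under RNAi against nrfl-1 and oma-1 as rde-4(syb6665), as rde-1(ne300) and as N2. GFP co-immunoprecipitates (co-IPs) and lysates (inputs) of gravid adults under the same double RNAi came from the tagged strain rde-1(cmp133[(GFP::3xFLAG)::rde-1]), once combined with the allele rde-4(syb6665) and once with wild-type rde-4. L4 larvae without RNAi gave co-IPs and inputs of alg-3(tor141[GFP::3xFLAG::alg-3]) with and without rde-4(syb6665), in a table that holds 26G-RNAs only. The values are RPM, read counts scaled by the authors to the depth of each library. Since whole animals were lysed, fewer germ cells of a kind and less small RNA per cell cannot be told apart. The labels do not say that replicates are separate cultures, so p-values measure the spread between these libraries.

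Depth, read from the steps between low piRNA values, spanned 18.7 to 22.1 M reads per L4 library. It spanned 17.4 to 22.5 M in adults and 12.8 to 22.8 M in the GFP::RDE-1 set, and it is unknown for the GFP::ALG-3 set. A floor of 3 reads lay at 0.131 to 0.234 RPM. The stage markers followed the labels: summed miR-35 to miR-42, the embryonic miRNA family, was far lower in L4 larvae than in adults. In L4 larvae it was 1008 to 1142 RPM in rde-4 and 1362 to 1525 RPM in N2, without overlap. In adults it was 14296 to 14875 RPM in rde-4, 26709 to 27631 in rde-1 and 29496 to 31691 in N2. Its part in the results below was not tested.

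Of the 73 genes, 65 were listed only as ALG targets, that is as targets of ALG-3 and ALG-4. spe-39 was listed as an ALG target and in the CSR class, and spe-41 as an ALG target and in the WAGO class. The remaining 6 were gsp-1, gsp-2 and spe-48 in the CSR class and fer-1, spe-15 and spe-47 in the WAGO class, and these 6 had no row for ALG class 26G-RNAs, while the other 67 had one. By gene identifier, all 73 were found in the WBcel235 annotation, which may not be the build used by the authors. There 35 of them (47.9%) lay on chromosome IV, against 17.6% of all genes with a 22G row, and 0 on chromosome X, against 7.16%. On chromosome IV, msp-81, msp-10, msp-56, nspd-2, ssp-10 and ssq-1 followed one another with gaps of at most 20 kb, and so did msd-1, msd-2 and msd-3.

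Many members are near-identical copies, and reads that fit several of them cannot be assigned. msd-1 and msd-3 had identical values in every library of all tables, and ssp-9 and ssp-11 had identical 22G-RNA values in the adult and GFP::RDE-1 tables. Such pairs carry 1 measurement, and single msp-, msd-, ssp- and nspd- genes are uncertain. How the pipeline divided such reads is not given in the sources used here.

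The first question was when these genes carry 22G-RNAs. In adults under RNAi and in untreated L4 larvae of N2, the tables were normalised separately, so their values stand side by side without a test. Summed over the 73 genes, 22G-RNAs came to 204 ± 2.44 RPM in N2 adults and 388 ± 14.7 RPM in N2 L4 larvae (SD, n = 3 each). That was 0.0558% ± 0.000912 of all 22G-RNA RPM in N2 adults and 0.160% ± 0.00557 in N2 L4 larvae. The mean was lower in adults for 67 genes and higher for 6, and the families differed widely.

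The msp-, ssp-, nspd- and msd- families had far lower 22G-RNA levels in adults than in larvae. The msp- genes, whose products form the cytoskeleton that moves the sperm and also signal to oocytes, summed to 3.65 ± 0.271 RPM in N2 adults and 54.1 ± 2.52 RPM in N2 L4 larvae (n = 3). For the ssp- genes the sums were 0.553 RPM in adults and 62.8 ± 0.585 RPM in L4 larvae, and for the nspd- genes 0.240 and 22.8 ± 0.964 RPM in the same 2 groups. The 4 msd- genes summed to 0.137 ± 0.237 RPM in N2 adults, a mean close to the level of 3 reads, and to 11.7 ± 0.938 RPM in N2 L4 larvae. Of the 73 genes, 40 were at or under 3 reads in every N2 adult library and 7 of these were at 0 throughout, whereas 0 genes were at or under that floor in every N2 L4 library.

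**Figure D1:**
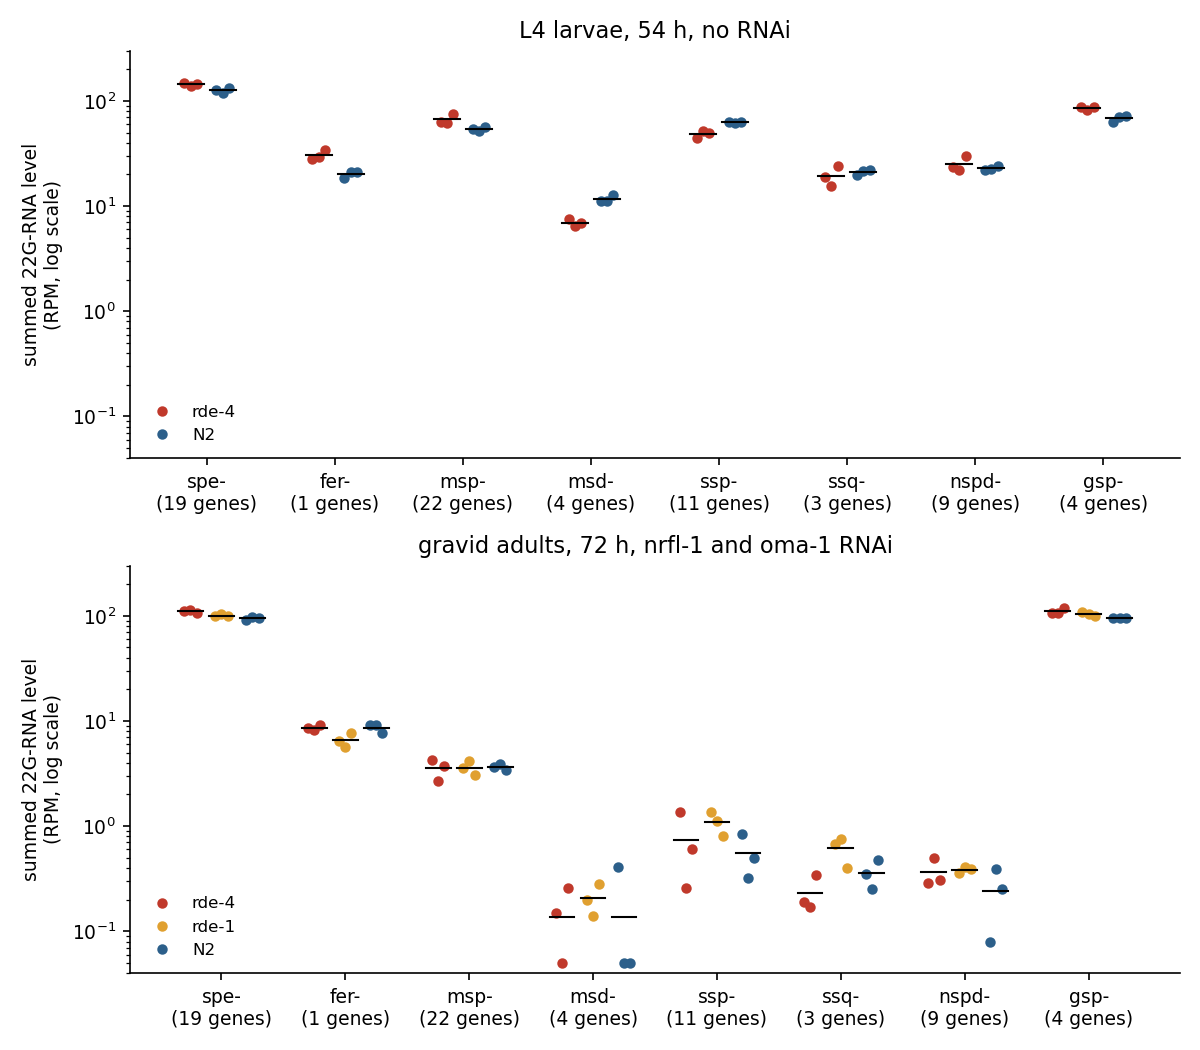
Summed 22G-RNA level (RPM, log scale) of each name family in every library of L4 larvae (top) and adults (bottom); points are libraries, lines are means, and sums under 0.05 RPM are drawn at 0.05. In N2, the msp- genes sum to 3.65 RPM in adults and 54.1 RPM in L4 larvae, while the gsp- genes sum to 95.8 RPM in adults and 68.6 RPM in L4 larvae.

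A group of 11 genes kept 22G-RNAs at 1 RPM or more in N2 adults, and the other 62 lay at 0.387 RPM or lower. The 11 genes summed to 199 ± 2.56 RPM in N2 adults and 177 ± 6.69 RPM in N2 L4 larvae. The 62 genes summed to 5.31 ± 0.266 RPM in N2 adults and 210.2 ± 8.46 RPM in N2 L4 larvae (n = 3). All 62 had a 26G-RNA row, against 5 of the 11. The 11 are fer-1, gsp-1, gsp-2, spe-15, spe-47, spe-48, spe-5, spe-6, spe-39, spe-41 and spe-44. This split at 1 RPM was made after the values were seen, and spe-5, spe-6, spe-39, spe-44 and spe-48 are named for that reason.

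gsp-1 and gsp-2, which encode PP1 catalytic subunits used throughout the animal, had higher 22G-RNA levels in adults than in larvae. gsp-2 had 71.0, 71.5 and 74.7 RPM in N2 adults and 39, 45.9 and 45.5 RPM in N2 L4 larvae. gsp-1 averaged 23.3 ± 1.99 RPM in N2 adults and 14.8 ± 0.626 RPM in N2 L4 larvae (n = 3). gsp-3 and gsp-4 encode the sperm-specific PP1 subunits, and gsp-3 was at 0 RPM in all 3 N2 adult libraries and at 4.20 ± 0.534 RPM in N2 L4 larvae.

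Among the spe- genes with adult 22G-RNAs, spe-39, whose product acts in vesicle trafficking in many cell types, stood at 12.8, 13.8 and 15 RPM in N2 adults and at 5.71, 5.20 and 5.04 RPM in N2 L4 larvae. spe-15, which encodes a myosin VI, averaged 14.9 ± 0.101 RPM in N2 adults and 9.11 ± 1.02 RPM in N2 L4 larvae. spe-47, which encodes a protein with a major sperm protein domain, ran the other way, with 27.1 ± 0.733 RPM in N2 adults and 46.6 ± 3.18 RPM in N2 L4 larvae (n = 3 each). fer-1, a dysferlin relative needed for fusion of the membranous organelles of sperm, did likewise with 8.67 ± 0.899 RPM in N2 adults and 20.2 ± 1.54 RPM in N2 L4 larvae.

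**Figure D2:**
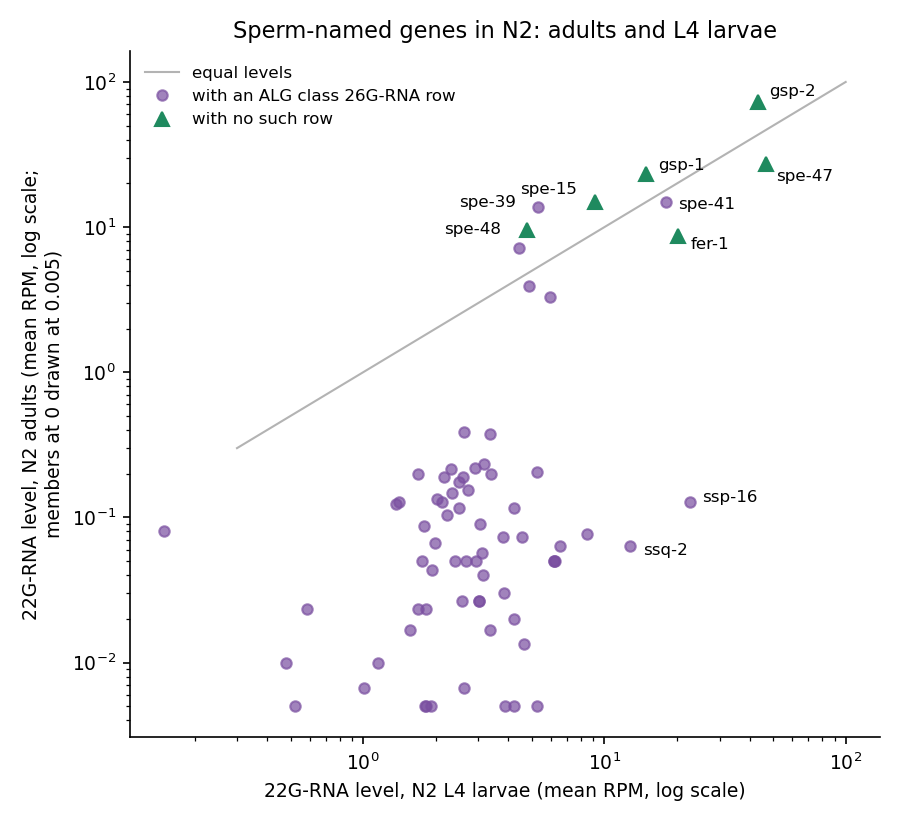
Mean 22G-RNA level (RPM, log scales) of each of the 73 genes in N2 adults (vertical) and N2 L4 larvae (horizontal); circles are genes with an ALG class 26G-RNA row, triangles genes without one, and 7 genes at 0 in adults are drawn at 0.005. All 6 triangles lie near the line of equal levels, and 62 circles lie below 1 RPM in adults.

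Per length of the annotated exons, the order of the larval levels differed from that of the RPM. In N2 L4 larvae ssp-16 stood highest with 68.6 RPM per kb of exon, followed by spe-47 with 37.1, gsp-2 with 26.9, ssp-34 with 26.2 and nspd-7 with 24.6 RPM per kb. fer-1, with 6.27 kb of exon, had 3.23 RPM per kb. The 22G-RNA and 26G-RNA levels per kb in N2 L4 larvae had a Spearman correlation of 0.77 across the 67 genes with both, which share libraries and include near-identical copies, so genes are not independent points. Both levels were divided by the same exon length, which by itself can raise such a correlation. The part of that shared divisor was not tested.

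The next comparison asked what loss of rde-4 does to both layers of small RNA on these genes in L4 larvae. The 26G-RNAs of the 67 genes were far lower in the mutant, with sums of 24.9, 24.8 and 18.3 RPM in rde-4 L4 larvae, against 562, 487 and 529 RPM in N2 L4 larvae. That is 22.7 ± 3.80 RPM in rde-4 and 526 ± 37.7 RPM in N2 (SD, n = 3 each), 23.2-fold lower. For all 67 genes every rde-4 library lay below every N2 library, which 96.9% of all 1399 genes with a 26G row also showed. The whole ALG class showed the same, with a sum of 385 to 526 RPM in rde-4 and 8667 to 9224 RPM in N2.

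With rde-4 means at or under the mean floor of 0.142 RPM set to that floor, as was needed for 20 of the 67 genes, the fold by which 26G-RNAs were lower ranged between 1.55 and 105 with a median of 22.7. For testing, a mean of 10 RPM over the table was required, and limma was used with Benjamini-Hochberg (BH) adjustment over the whole table, in which 6.74% of 4482 features were lower and 27.8% higher. Of the 67 genes, ssp-16, spe-10, ssp-34 and msp-81 reached that mean, all through their N2 level, so the choice of these 4 fixed the direction and their values are given as a description. ssp-16 had 1.5, 1.27 and 0.820 RPM in rde-4, against 57.8, 50.4 and 57.6 RPM in N2, a log2 change of -4.69 ± 0.12 (SE). spe-10, which encodes a palmitoyltransferase of the sperm's membranous organelles, had 0.720, 0.230 and 0.410 RPM in rde-4 and 20.5, 23.7 and 21.2 RPM in N2, with a log2 change of -3.98 ± 0.13 (SE). The groups were far apart for both genes, and ssp-34 and msp-81 behaved alike, with log2 changes of -3.48 and -2.75. All log2 values were computed after adding 1 RPM, so the change of a gene with few reads is understated. With no filter, 67 of 67 genes were called lower, where 9.11% of 20943 features of the table were.

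The 22G-RNAs of the same 67 genes did not share that drop, with sums of 234, 234 and 269 RPM in rde-4 L4 larvae, against 245, 242 and 259 RPM in N2 L4 larvae. The groups overlapped, with means of 246 ± 20.2 RPM in rde-4 and 249 ± 9.38 RPM in N2. The 6 genes without a 26G-RNA row summed to 183 ± 6.25 RPM in rde-4 and 139 ± 5.81 RPM in N2 (n = 3 each), and these ranges did not overlap. Their part of the 22G-RNAs of all 73 genes was 42.7% ± 1.77 in rde-4 and 35.8% ± 0.486 in N2. All 22G-RNAs of the table together were likewise higher in the mutant, at 254199 to 261042 RPM in rde-4 and 235528 to 244895 RPM in N2. The part of this general shift in the single-gene differences was not tested. The median ratio of rde-4 over N2 was 1.13 across the 73 genes, beside 1.12 across the 6262 genes with 22G-RNAs at a mean of at least 1 RPM.

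**Figure D3:**
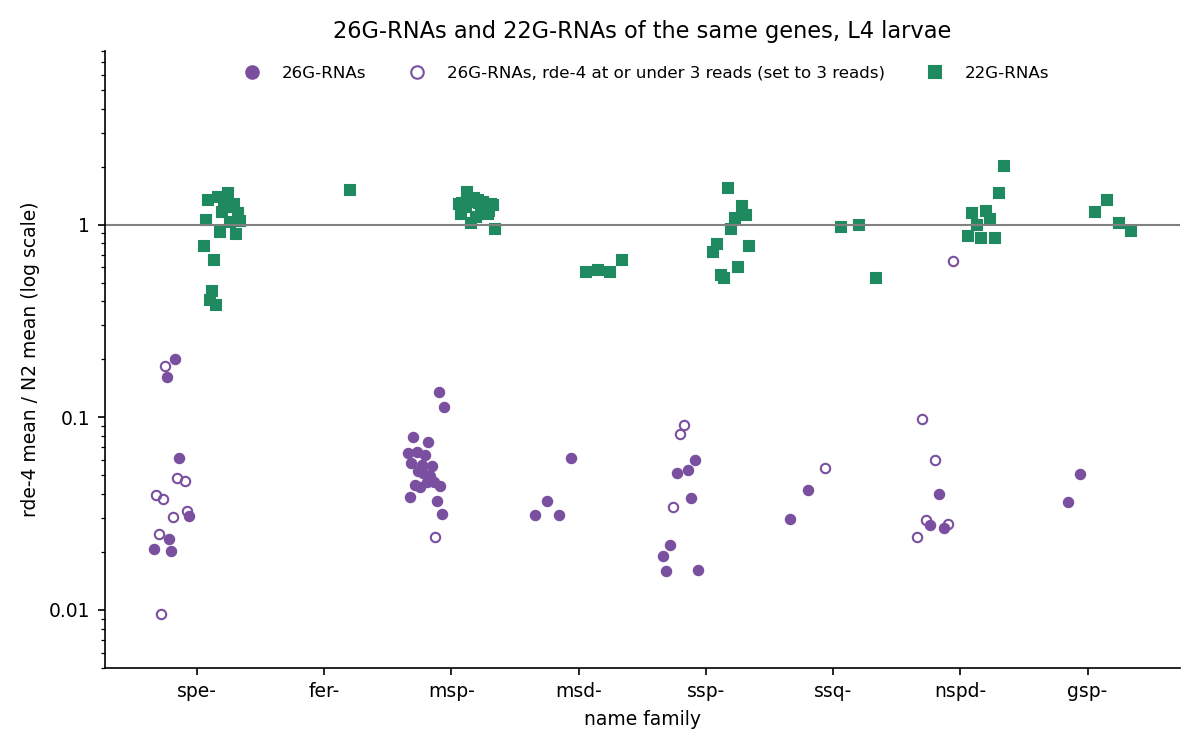
Ratio of the rde-4 mean to the N2 mean in L4 larvae (log scale) for the 26G-RNAs (circles) and 22G-RNAs (squares) of each gene, by name family; open circles are 26G-RNAs at or under 3 reads in rde-4, set to 3 reads. The 26G-RNAs of all 67 genes lie under the line at 1, with a median fold loss of 22.7, and the 22G-RNAs lie on both sides of it, between 0.382 and 2.02.

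Under that nearly level sum, genes and families differed in direction. Of the 73 genes, 26 (35.6%) had every rde-4 library above every N2 library and 14 (19.2%) had every rde-4 library below, beside 33.2% and 8.20% of all 6890 genes with 22G-RNAs. The msp- genes stood higher: 21 of 22 had a ratio above 1, with a median of 1.27, 15 without overlap upward and 0 downward. Of the 6262 genes with 22G-RNAs at 1 RPM or more, 78.3% were above 1. After scaling all libraries to equal totals, 20 of the 22 msp- genes were above 1 at a median of 1.24, beside 74.2% of all and a median of 1.09. None of the msp- genes reached 10 RPM, and none passed limma with the low-value filter removed. With a mean of at least 1 RPM required, msp-33 passed (limma, adjusted p = 0.0390). The other single msp- differences are values and not calls. msp-33 had 3.87 ± 0.439 RPM in rde-4 and 2.63 ± 0.523 RPM in N2 (n = 3 each). Reads shared between copies make the family less than 22 separate measurements.

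The msd- genes went the other way, with all 4 below their N2 levels without overlap at a median ratio of 0.574, under equal totals 0.561. msd-1, whose values are identical to those of msd-3, had 1.81, 1.59 and 1.74 RPM in rde-4, against 2.80, 2.98 and 3.30 RPM in N2. msd-4 averaged 2.03 ± 0.350 RPM in rde-4 and 3.10 ± 0.186 RPM in N2 (n = 3). The ssp- genes split, with 6 lower and 2 higher without overlap, 3 others overlapping, and a median ratio of 0.795. Of the 9 nspd- genes 2 were higher without overlap and 0 lower, and of the 3 ssq- genes 0 were higher and 1 lower. The 19 spe- genes held 4 that were higher and 3 that were lower without overlap.

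Among the 8 genes with a mean of at least 10 RPM, 5 rose, 1 fell and 2 did not pass the test in rde-4 L4 larvae, by limma with BH adjustment over the table's 4482 features. This compares with 27.8% higher and 6.74% lower among all features tested, and with 28.8% higher and 4.49% lower among the 22G-RNAs tested. The median log2 change of the 8 was 0.30, and that of all features 0.16. All but ssp-16, spe-41 and ssq-2 of the 8 lack a 26G-RNA row.

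fer-1 (WBGene00001414, chromosome I) had the largest ratio of the 8, with 27.8, 29.6 and 34.4 RPM in rde-4, against 18.5, 21.3 and 21 RPM in N2. The groups did not overlap, and the log2 change was 0.57 ± 0.09 (SE, limma, adjusted p = 0.000847). gsp-2 (WBGene00001748, chromosome III) had 60.1, 55.2 and 60.0 RPM in rde-4 and 39, 45.9 and 45.5 RPM in N2, again without overlap, with a log2 change of 0.42 ± 0.08 (SE, limma, adjusted p = 0.00156). spe-47 (WBGene00021271, chromosome I) averaged 57.8 ± 5.35 RPM in rde-4 and 46.6 ± 3.18 RPM in N2, a log2 change of 0.30 with a limma adjusted p of 0.0143.

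spe-15 and spe-41 also passed. spe-15 (WBGene00004969, chromosome I) averaged 12.3 ± 1.02 RPM in rde-4 and 9.11 ± 1.02 RPM in N2, with a log2 change of 0.40 ± 0.11 (SE, limma, adjusted p = 0.0155). spe-41 (WBGene00004976, chromosome III), a TRPC-type channel that sperm need for fertilization, had 22.2, 23.0 and 21.7 RPM in rde-4, against 17.6, 17.8 and 18.6 RPM in N2. Its log2 change was 0.29 ± 0.08 (SE, limma, adjusted p = 0.0139), and its 26G-RNAs stood at 0.0800 ± 0.0520 RPM in rde-4 and 4.70 ± 0.358 RPM in N2. spe-15 passed the filter, at a mean of 10.7 RPM over all L4 libraries, only through its level in rde-4, which bears on its direction. Leaving out N2 replicate 1 gave 3 genes called higher, with spe-15 at a log2 change of 0.32 and spe-41 at 0.28 (limma, adjusted p = 0.0573 and 0.0505). Leaving out N2 replicate 2 gave 2, with spe-15 at 0.40, spe-41 at 0.29 and spe-47 at 0.25 (limma, adjusted p = 0.0591, 0.0518 and 0.0728). With all libraries these log2 changes were 0.40, 0.29 and 0.30, and each fit without a library rests on fewer libraries by construction.

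ssp-16 (WBGene00006044, chromosome I), a small protein of the sperm-specific family P, was the single gene of the 8 that fell. Its 22G-RNAs were at 11.8, 13.0 and 12.3 RPM in rde-4, against 22.1, 23.2 and 22.6 RPM in N2, with no overlap and a log2 change of -0.82 ± 0.08 (SE, limma, adjusted p = 9.17e-06). It also had the highest 26G-RNA level of the 67 genes in N2 L4 larvae. gsp-1 was at 17.3 ± 0.309 RPM in rde-4 and 14.8 ± 0.626 RPM in N2, without overlap but with an adjusted p of 0.0637 in limma. ssq-2 averaged 12.8 RPM in both groups, with SDs of 3.38 in rde-4 and 1.18 in N2, and its groups overlapped.

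**Figure D4:**
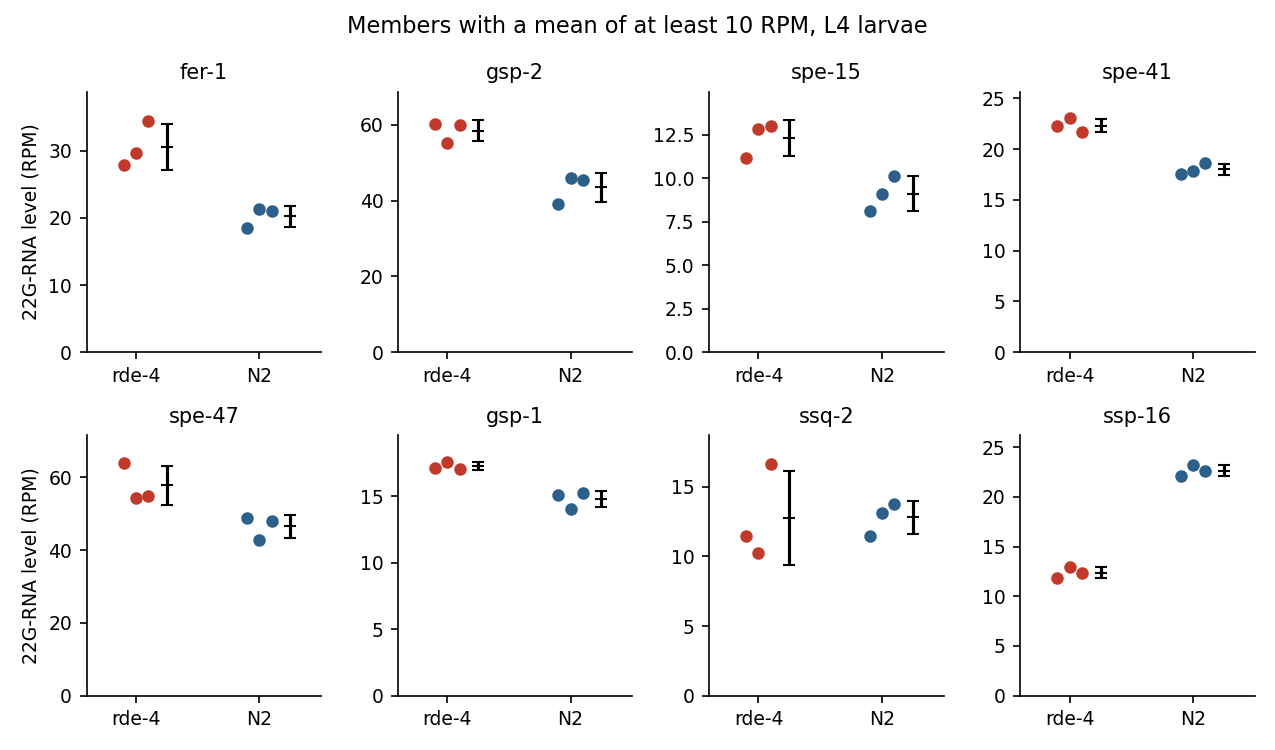
22G-RNA level (RPM) in each L4 library of the 8 genes with a mean of at least 10 RPM, rde-4 at the left and N2 at the right of each panel; points are libraries and bars are the mean ± SD (n = 3). Groups do not overlap in 7 panels, with rde-4 above N2 in 6 of them and below N2 for ssp-16.

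With all 73 genes tested and no filter, 6 were called higher and 8 lower by limma, against 5.94% higher and 9.11% lower among 20943 features, and 13.0% higher and 4.66% lower among 6869 genes with 22G-RNAs. With a mean of at least 1 RPM, 9 were higher and 9 lower, beside 15.5% and 13.9% of features and 19.3% and 5.92% of 6262 genes with 22G-RNAs. Those called lower with no filter included ssp-16, ssp-34, spe-19, ssq-4, msd-2 and the identical pair msd-1 and msd-3, and the added higher gene was ssp-31. Genes outside the rule for named genes (ssq-4, ssp-31, msd-1, msd-2, msd-3 and msp-33) were chosen after their values were seen. spe-19, a membrane protein of the pathway that activates spermatids, had 1.11, 1.04 and 1.09 RPM in rde-4, against 2.13, 2.29 and 2.77 RPM in N2, with a log2 change of -0.70 ± 0.15 (SE, limma, adjusted p = 0.00818). ssp-34 averaged 5.10 ± 0.327 RPM in rde-4 and 8.47 ± 0.485 RPM in N2 (n = 3 each). The groups did not overlap for either gene.

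Across the 67 genes, the 22G-RNA ratio showed little relation to the 26G-RNA supply in N2. The Spearman correlation of the ratio was -0.18 with the 26G-RNA level per kb and -0.13 with the quotient of 26G-RNA over 22G-RNA level. Ratio and quotient have the same N2 22G-RNA level as divisor, which by itself can raise their correlation, so the value of -0.13 decides little. ssp-16, at 167 RPM of 26G-RNA per kb, had a 22G-RNA ratio of 0.546, while msp-81, at 61.4 RPM of 26G-RNA per kb, had a ratio of 0.948.

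Genes of related function were set beside the members, from lists drawn up with earlier results of these data known. In rde-4 against N2 L4 larvae, 27.8% of all features tested were higher and 6.74% lower. With no filter these shares were 5.94% and 9.11%, and those of the genes with 22G-RNAs are given above. Of 16 regulators of sperm fate 7 were testable, of which 4 were higher and 0 lower (2 and 0 of 10 with no filter). Of 20 oocyte and eggshell genes 12 were testable, with 5 higher and 0 lower (5 and 0 of 16 with no filter), and of 24 genes of the 26G-RNA and 22G-RNA pathways 14 were testable, with 8 higher and 0 lower (7 and 0 of 18 with no filter). Among 14 sperm genes with other kinds of names, 5 were found by these names with a 22G-RNA row, and none of the 5 was testable. The list held trp-3, which is another name of the member spe-41. That gene was tested above as a member and is not among the 5. The 5 included gska-3, a kinase of the GSK3 family, with 5.18 ± 0.0520 RPM in rde-4 and 7.73 ± 0.832 RPM in N2. With no filter, 0 of these 5 were higher and 1 lower. Median log2 changes were 0.21 for the sperm fate regulators and 0.26 for each of the other testable lists, beside 0.16 for all features.

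In adults under RNAi the question was whether rde-4 and rde-1 matter for the 22G-RNAs that remain. The sums over the 73 genes lay between 232 and 239 RPM in rde-4, between 212 and 220.3 RPM in rde-1 and between 202 and 207 RPM in N2 (n = 3 each), without overlap. All 22G-RNAs together came to 384406 to 396689 RPM in rde-4, 368374 to 373806 in rde-1 and 365056 to 368389.9 in N2. The 73 genes held 0.0604% ± 0.00184 of them in rde-4, 0.0587% ± 0.00115 in rde-1 and 0.0558% ± 0.000912 in N2. The part of the general level in the sums was not tested. Of the 7 genes with a mean of at least 10 RPM, gsp-2, spe-41 and spe-47 rose and 0 fell in rde-4 against N2 by limma with BH adjustment. Among all 5450 features tested, 28.0% were higher and 6.17% lower. In rde-1 against N2, spe-47 rose and spe-41 fell, where 7.52% of features were higher and 7.96% lower. At an unadjusted p under 0.05, 0 genes were lower in rde-4 as well. Both comparisons use the same N2 libraries. Without overlap, 8 of 73 genes were higher and 2 lower in rde-4 than in N2, beside 36.5% and 4.98% of all genes with 22G-RNAs. Apart from gsp-2, spe-41 and spe-47, these had means of 0.217 RPM or less in both groups, near or under 3 reads. In rde-1 7 genes were higher and 2 lower than in N2, beside 17.0% and 12.3%. Apart from gsp-2, spe-15, spe-41 and spe-47, these had means of 0.387 RPM or less in both groups. The part of depth in these counts was not tested.

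spe-41 moved in opposite directions in the mutants. It had 18.6, 20.6 and 18.1 RPM in rde-4, 11.5, 11.4 and 12.0 RPM in rde-1 and 14.1, 15.9 and 14.3 RPM in N2, 3 ranges without overlap. The log2 change was 0.35 ± 0.07 in rde-4 against N2 (SE, limma, adjusted p = 0.00583) and -0.32 ± 0.07 in rde-1 against N2 (SE, limma, adjusted p = 0.0116). The change in rde-1 no longer passed without N2 replicate 2 (log2 change -0.27, adjusted p = 0.0529). Compared directly, rde-4 was higher than rde-1 by a log2 change of 0.67 ± 0.07 (SE, limma, adjusted p = 4.14e-05), and spe-41 was the single gene of the 7 called higher in that comparison, with 0 lower, in which 22.3% of features were higher and 8.24% lower. With no filter ssq-4, named after its value was seen, was called lower in rde-4 than in rde-1, beside 3.16% of features. It had 0.00667 RPM in rde-4 and 0.267 ± 0.133 RPM in rde-1, so the rde-4 level lies under 3 reads.

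spe-47 was higher in both mutants, with 34.7, 38.4 and 31.5 RPM in rde-4, 35.6, 35.1 and 33.0 RPM in rde-1 and 27.8, 27.2 and 26.3 RPM in N2. The mutants overlapped each other and both lay above N2, with log2 changes of 0.35 in rde-4 (limma, adjusted p = 0.00465) and 0.34 in rde-1 (limma, adjusted p = 0.00605). gsp-2 averaged 85.1 ± 5.94 RPM in rde-4, 79.3 ± 3.61 in rde-1 and 72.4 ± 2.02 in N2, with a log2 change of 0.23 ± 0.05 in rde-4 (SE, limma, adjusted p = 0.0114) and 0.13 ± 0.05 in rde-1 (SE, adjusted p = 0.158). gsp-1, spe-15, spe-39 and spe-48 did not pass in any of the 3 comparisons. fer-1 was under 10 RPM, with 8.67 ± 0.400 RPM in rde-4, 6.62 ± 1.01 in rde-1 and 8.67 ± 0.899 in N2. The same gene was among those that rose in rde-4 L4 larvae.

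For the 62 genes under 1 RPM in adults, summed levels were 5.99 ± 0.990 RPM in rde-4, 6.95 ± 0.956 RPM in rde-1 and 5.31 ± 0.266 RPM in N2. Of all 73 genes, 36 in rde-4, 31 in rde-1 and 40 in N2 lay at or under 3 reads in every library of the group. Their 26G-RNAs had nearly gone too: over the 67 genes they summed to 0.803 ± 0.136 RPM in rde-4, 4.34 ± 0.635 RPM in rde-1 and 1.52 ± 0.469 RPM in N2 (n = 3 each). rde-1 stood above both other groups without overlap, as did the ALG class as a whole, with 75.2 to 92.4 RPM in rde-1, 31.0 to 35.5 RPM in rde-4 and 41.4 to 50.1 RPM in N2. Of the 67 genes, 15 (22.4%) were higher in rde-1 than in N2 without overlap, beside 7.79% of all genes with a 26G row. The 26G-RNAs of 65 of the 67 genes in rde-4, 53 in rde-1 and 65 in N2 lay at or under 3 reads in every library. The count of 15 thus rests largely on few reads.

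Of the lists in adults, 3 of 8 testable sperm fate regulators, 9 of 16 oocyte and eggshell genes and 7 of 14 pathway genes were higher in rde-4 than in N2, and 0 of each were lower, by limma with BH adjustment over all features, of which 28.0% were higher and 6.17% lower. With no filter the higher counts were 0 of 10, 6 of 16 and 6 of 18, beside 4.78% of features. In rde-1 against N2, 0, 1 and 1 genes of the same lists were higher and 0, 0 and 3 lower, where 7.52% of features were higher and 7.96% lower.

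The GFP::RDE-1 co-IPs show whether these 22G-RNAs come down with RDE-1. In the inputs, sums over the 73 genes were 194 ± 16.6 RPM with rde-4 mutant and 187 ± 10.5 RPM with wild-type rde-4 (n = 2 each), and 0 of the 4 testable genes (gsp-1, gsp-2, spe-15 and spe-47) were called by limma, where 2.04% of 4372 features were higher and 2.84% lower. At an unadjusted p under 0.05 the count was also 0. Without overlap between the 2 libraries of each group, 7 of 73 genes (9.59%) were higher and 24 (32.9%) lower in the mutant inputs, beside 30.5% and 16.2% of all genes with 22G-RNAs. The 24 lower genes had means of 0.510 RPM or less in both groups, so their counts rest on few reads. None of them was called with no filter (limma, lowest adjusted p = 0.171, for nspd-1). The summed miR-35 to miR-42 level was 19352 and 21686 RPM in the mutant inputs and 39372 and 34816 RPM with wild-type rde-4. Summed ALG class 26G-RNAs were at 5.90 and 1.60 RPM in the mutant inputs and 55.3 and 19.4 RPM with wild-type rde-4. The part of either in these counts was not tested. Of the 73 genes, 40 lay at or under 3 reads in both mutant inputs, against 19 in both inputs with wild-type rde-4.

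In the co-IPs the sums were 56.6 ± 23.2 RPM in the rde-4 mutant and 39.8 ± 5.15 RPM with wild-type rde-4, below their inputs in both backgrounds. gsp-2 had 18.2 and 9.13 RPM in co-IPs and 63.2 and 51.5 RPM in inputs of the rde-4 mutant, a log2 difference of -2.06 ± 0.30 (SE, limma, adjusted p = 9.81e-07). With wild-type rde-4 it had 11.4 and 9.54 RPM in co-IPs and 63.3 and 54.4 RPM in inputs, a log2 difference of -2.39 ± 0.30 (SE, limma, adjusted p = 9.21e-09). The co-IP replicates lay farther apart in the mutant. All 4 testable genes, which reached the mean of 10 RPM mostly through the inputs, were lower in the co-IP in both backgrounds, as were 92.5% of all features in the mutant and 95.1% with wild-type rde-4. With no filter, 17 of 73 genes were lower in the mutant and 27 with wild-type rde-4, beside 39.2% and 46.4% of features. Requiring a mean of 1 RPM or more, 11 of 11 were lower in both, beside 84.2% in the mutant and 90.5% with wild-type rde-4. The difference of co-IP to input between the backgrounds was called for 0 of the 4 genes by limma, and for 0 at an unadjusted p under 0.05, with 1.40% of features higher and 1.90% lower, but for 4 of 4, all higher in the mutant, without the mutant's co-IP replicate 2.

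Last, GFP::ALG-3 co-IPs from L4 larvae give the 26G-RNAs of these genes that came down with ALG-3. The 67 genes summed to 345 ± 8.97 RPM in the co-IPs and 101 ± 5.36 RPM in the inputs of the rde-4 mutant, and to 6070.3 ± 108 RPM in the co-IPs and 1249 ± 175 RPM in the inputs with wild-type rde-4 (n = 2 each). In the mutant 58 of the 67 genes had both co-IPs above both inputs and 2 had both below, beside 83.8% and 4.62% of all 1386 genes of the table. With wild-type rde-4 all 67 had both co-IPs above both inputs, beside 98.2%. Both mutant inputs lay below both inputs with wild-type rde-4 for 67 of 67 genes, beside 96.2%. Input levels of GFP::ALG-3 larvae with wild-type rde-4 and levels in N2 L4 larvae ranked the 67 genes alike, with a Spearman correlation of 0.92 between 2 tables made from different libraries.

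The families differed in how much more 26G-RNA the co-IP held. In the rde-4 mutant the ratio of co-IP over input sums was 6.63 for spe-, 2.19 for msp-, 3.34 for msd- and 3.36 for ssp- genes. With wild-type rde-4 the spe- genes summed to 2445 ± 48 RPM in co-IPs and 196 ± 31.0 RPM in inputs, 12.5-fold more. The msp- genes there summed to 1154 ± 1.15 RPM in co-IPs and 369 ± 56.7 RPM in inputs, 3.13-fold more, and the msd- genes were 2.91-fold and the ssp- genes 3.33-fold higher. No test was run between families.

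Among single genes, spe-10 had 13.3 and 14.9 RPM in co-IPs and 1.18 and 1.79 RPM in inputs of the rde-4 mutant, 9.48-fold more. With wild-type rde-4 it had 500.3 and 584 RPM in co-IPs and 24.1 and 36.3 RPM in inputs, 17.9-fold more. Its co-IPs and inputs did not overlap in either background. ssp-16, with the highest 26G-RNA level in N2 L4 larvae, was 2.91-fold higher in co-IPs of the mutant. With wild-type rde-4 it had 505 and 569.6 RPM in co-IPs and 185 and 191 RPM in inputs, 2.85-fold more. spe-41 was 4.05-fold higher in co-IPs than in inputs of the mutant and 21.7-fold higher with wild-type rde-4. The difference between backgrounds was itself tested: the log2 co-IP to input difference was smaller in the mutant for 36 of the 58 genes with a mean of at least 10 RPM and larger for 0 (limma, BH), beside 82.3% of all 1101 features. All 58 averaged 10 RPM or more in the co-IPs with wild-type rde-4 and 0 did so in the mutant's inputs, so the filter bears on the direction. So does the 1 RPM added before taking logs, which shrinks ratios over low inputs. ssp-16, with the slightly larger ratio in the mutant (2.91 against 2.85), had a fitted difference of -0.12. The counts are therefore given as a description. With no filter the count was 42 of 67, beside 80.3% of 1384 features. The count of 36 became 22 and 19 when co-IP replicate 1 or 2 with wild-type rde-4 was left out. With 0.1 in place of 1 added before taking logs it was 12.

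**Figure D5:**
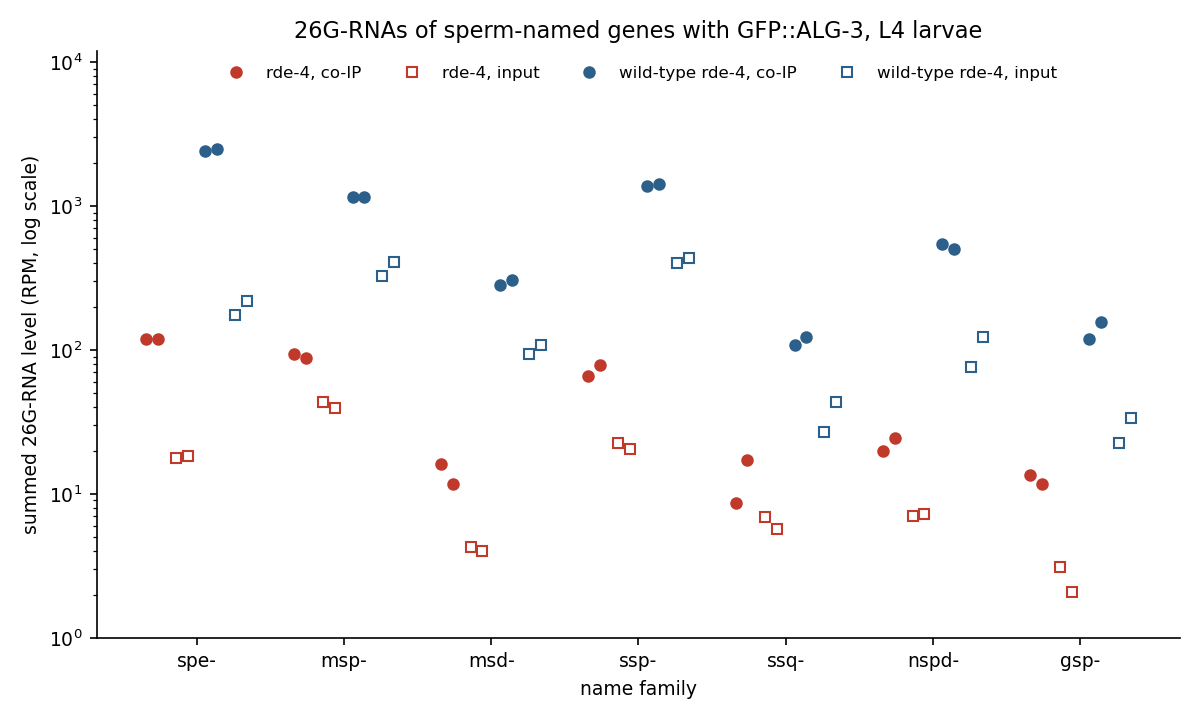
Summed 26G-RNA level (RPM, log scale) of each name family in every GFP::ALG-3 library of L4 larvae; filled circles are co-IPs, open squares inputs, red the rde-4 mutant and blue wild-type rde-4 (2 libraries per group). The mean co-IP sums in the mutant are 119.8 RPM for spe- and 90.6 RPM for msp- genes, and with wild-type rde-4 they are 2445 and 1154 RPM.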

How the data were processed

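The deposited tables give RPM (read counts scaled by the authors to library depth), to 2 decimals; per the series design text they were made with tinyRNA. Its version, settings, genome build and treatment of reads with several hits are not given in the sources used here. Per the labels' protocols, small RNAs of about 16 to 30 nt were cut from gels, and some libraries, among them the L4, adult and GFP::RDE-1 double RNAi sets, were treated with RppH so that 22G-RNAs could be cloned. Columns were matched to samples by header, and 31 of the 79 labelled libraries were used. The other libraries were not used here, and the values of 1 gene are not reported here.

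Depth was read from the steps of low piRNA values, which were whole multiples of 1 read (within 0.0051 RPM) for 98.9% to 99.5% of them. Members' low values were whole reads in at most 80.0%, so no count model was used. Features whose mean reached 10 RPM were tested with limma 3.58.1 in R 4.3.3, after adding 1 RPM and taking log2, using moderated variances with a mean-variance trend, with all groups of a table in 1 fit and Benjamini-Hochberg adjustment over all features at a threshold of 0.05. It was first tested on simulated data. Exon lengths come from the WBcel235 annotation. Tables were never tested against each other. Alternatives were an offset of 0.1, no filter (features at 0 throughout dropped), equal totals, no trend, a replicate block, leaving out each library and, added after seeing the data, a mean of at least 1 RPM. Equal totals were not fitted for the GFP::ALG-3 set. 

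Genes were named by rule: the 5 highest in N2 of each stage, the 3 largest called changes in each direction per contrast, the highest of each family, all gsp- genes, the 5 with the highest 26G-RNA level in N2 L4 larvae, and those nearest 10 RPM. The members and lists were chosen with earlier results of these data known.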

Additional observations from a re-analysis of the deposited data

Results flagged for a closer look

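A set of values was marked because the ALG-3 co-IP to input difference of 26G-RNAs itself differed between the rde-4 mutant and wild-type rde-4, by the interaction term of the limma fit with BH adjustment. This held for 36 of 58 testable genes, all with a smaller difference in the mutant. Of all 1101 features tested, 82.3% had a smaller difference there and 0 a larger one. All 58 genes reached the mean of 10 RPM in the co-IPs with wild-type rde-4, so the filter bears on the direction. The 1 RPM added before taking logs shrinks ratios over the low inputs of the mutant and bears on it too. The values below are therefore a description. The differences on the log2 scale (rde-4 minus wild-type rde-4) were -2.69 for spe-41, -2.30 for nspd-1, -2.18 for spe-26, -1.53 for spe-10, -1.46 for spe-19, -1.35 for nspd-7, -1.17 for spe-46, -1.13 for spe-38, -0.70 for ssp-9 and -0.66 for ssp-34. Levels of the mutant's inputs were low, for example 0.355 RPM for spe-26 and 0.670 RPM for nspd-1. With 0.1 RPM added in place of 1, spe-19, spe-38, spe-46, ssp-34 and ssp-9 were no longer called and the other 5 were. When single libraries were left out, ssp-34 missed the threshold in 5 of 8 cases (differences of -0.68 to -0.56, adjusted p of 0.0511 to 0.0813) and ssp-9 in 4 of 8 (differences of -0.73 to -0.53, adjusted p of 0.114 to 0.196) in fits with fewer libraries by construction. The part of low input levels in these values was not tested further.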

How the results depend on the processing

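With an offset of 0.1, 12 genes instead of 36 had a smaller ALG-3 co-IP to input difference in the rde-4 mutant, and the differences of gsp-3, msd-4 and ssp-11, not called before, were 0.20, 0.28 and 0.03. Without the filter on low values, 8 22G-RNAs and 67 26G-RNAs of the members were called lower in rde-4 L4 larvae, beside 9.11% of all features. In adult rde-4 against rde-1 the count was 1 lower, beside 3.16%. In GFP::RDE-1 co-IPs it was 17 lower in the mutant and 27 with wild-type rde-4, beside 39.2% and 46.4%. With a mean of at least 1 RPM, calls among the members in L4 larvae numbered 9 higher and 9 lower 22G-RNAs and 61 lower 26G-RNAs. Of all features, 15.5% were higher and 13.9% lower there. In each GFP::RDE-1 background 11 were lower, beside 84.2% of features in the mutant and 90.5% with wild-type rde-4. More or fewer features are tested there by construction. Leaving out 1 library gave 2 to 5 higher 22G-RNAs in rde-4 L4 larvae, 0 to 1 lower in adult rde-1, 0 to 4 for the GFP::RDE-1 co-IP difference between backgrounds and 19 to 43 for that of GFP::ALG-3; the cause was not tested.

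Results that changed sign when 1 library was left out had not been called: ssq-2 in L4 larvae (-0.22 to 0.11), adult rde-4 against rde-1 for gsp-1 (-0.07 to 0.06), spe-15 (-0.12 to 0.01) and spe-47 (-0.06 to 0.08), GFP::RDE-1 inputs for gsp-1 (-0.01 to 0.21), gsp-2 (-0.18 to 0.11) and spe-47 (-0.07 to 0.01), the GFP::RDE-1 co-IP difference between backgrounds for gsp-2 (-0.13 to 0.79) and spe-15 (-0.43 to 0.67), and that of GFP::ALG-3 for msd-4 (-0.57 to 0.34) and ssp-16 (-0.34 to 0.11), all log2. Where an arm was left with 1 library, that library was assumed to vary like the other groups.

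Replicate numbers were not shown to pair libraries: same-numbered rde-4 and N2 L4 libraries had correlated deviations of 0.14, -0.0598 and 0.066, and not every library correlated best with its own number. With a replicate block, 5 genes were higher and 1 lower in rde-4 L4 larvae, as without it, and among the named genes ssp-9 alone lost its call (ALG-3 difference -0.70). Equal totals, which were not fitted for the GFP::ALG-3 set, changed no call among the named genes in the other sets. Without the trend, gsp-1 in L4 larvae and gsp-4 in the ALG-3 difference also passed, at log2 changes of 0.21 and -0.71. Depth limits the adult values: 40 of 73 genes lay at or under 3 reads in all N2 libraries.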
